A study of Macaca mulatta with 2 samples.

Results

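The genes described here are 48 genes of mitosis and the spindle, taken as every probe of the array whose gene name was one of a list of G2 and M phase genes. The list was represented by 62 probes, and 47 of its genes were measured, among 19611 genes and single probes tested in all. The remaining gene, MKI67, the usual proliferation antigen, had 1 probe, which was not well above background in any of the 4 RNAs.

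The RNAs came from primary Sertoli cell cultures of rhesus macaque testis, and the design compared pubertal with infant cultures under the same hormones. Sertoli cells are the somatic cells that line the seminiferous tubule and support the germ cells. The 2 infant cultures were from males younger than 3 months. The 2 pubertal cultures were from juveniles of 18 to 22 months in which puberty was induced with gonadotropin-releasing hormone (GnRH), infused at 0.15 µg/min for 2 min at intervals of 3 h over 4 to 5 weeks, so that puberty here was a driven state and not a spontaneous one. Every culture, infant and pubertal, received testosterone at 100 nM and follicle-stimulating hormone (FSH) at 5 ng/ml during 24 h, and no culture without hormones was analysed here. Each of the 2 arrays carried 1 pubertal and 1 infant RNA. Array 1 held pubertal culture 1 in the dye Cy5 and infant culture 1 in Cy3, and array 2 held pubertal culture 2 in Cy3 and infant culture 2 in Cy5. The labels call the pairs biological replicates and give each culture a number of its own.

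Mitosis is driven by the cyclin-dependent kinase CDK1 with its A and B cyclins. Polo and Aurora kinases, the kinetochore, motor proteins of the spindle and the anaphase-promoting complex then align, separate and partition the chromosomes. The genes of this machinery are transcribed together late in the cell cycle, so that their RNA is widely used as a mark of dividing cells. Primate Sertoli cells divide in the infant and again around puberty, and leave the cell cycle as they mature.

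The measurement rested on human probes of 60 bases, and the probes of 6 genes that carried the pattern described below are shown here with their positions on the human build hg17. They show what the macaque RNA was hybridised to. No macaque sequence was used here to look for mismatches or for differences in sequence between the animals. The CDC2 probe lies at chr10:62222010-62223656 on the plus strand, the CCNA2 probe at chr4:123097600-123097659 on the minus strand and the BUB1B probe at chr15:38300120-38300179 on the plus strand. The BUB1 probe lies at chr2:111111931-111113572 on the minus strand, the KIF11 probe at chr10:94403444-94403503 on the plus strand and the KIF20A probe at chr5:137549980-137550703 on the plus strand. The CDC2, BUB1 and KIF20A probes span more than their own length on the genome and so cross an intron, which genomic DNA would not match as 1 run.
CDC2: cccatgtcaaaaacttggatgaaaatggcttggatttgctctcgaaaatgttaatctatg
CCNA2: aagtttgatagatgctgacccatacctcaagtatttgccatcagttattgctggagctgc
BUB1B: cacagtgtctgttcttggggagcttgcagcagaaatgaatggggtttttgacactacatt
BUB1: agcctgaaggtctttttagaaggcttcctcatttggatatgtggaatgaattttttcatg
KIF11: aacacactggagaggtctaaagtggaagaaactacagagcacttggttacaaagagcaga
KIF20A: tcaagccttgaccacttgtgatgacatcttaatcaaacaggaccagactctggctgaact

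On each array, 60.9% to 74.8% of the 43376 spots were well above background in a channel, and saturated spots numbered 428 to 586 in Cy5 and 0 to 2 in Cy3. No spot of a mitosis gene was saturated. The number of arrays limits the precision of everything below. Levels are given as log2 of the normalised intensity of 1 RNA, and differences as log2 ratios of pubertal over infant within an array, where 1 is a 2-fold difference. Each ratio takes its direction from the dye labels.

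The ratios of the mitosis genes ran in opposite directions on the 2 arrays. Of the 47 genes, 39 were lower in the pubertal culture on array 1 and higher in the pubertal culture on array 2, against 23.2% of all features tested, and 0 genes did the opposite. In RNA of a whole culture, fewer dividing cells and less RNA per cell cannot be told apart. The median ratio of the 47 genes was -0.76 on array 1 and 0.81 on array 2, where the medians of all features were 0.05 and -0.03. With each array centred on its median in place of the loess, all features tested stood at 0.63 and -0.42, and the median of the mitosis genes was then 0.03 on array 1, the other sign, and 0.36 on array 2. Relative to all features they lay at -0.60 and 0.78 in that setting, and 37 of the 47 were below the median of all features on array 1 and above it on array 2 (all features: 34.7%). By sign alone, 20 of the 47 were lower on array 1 and higher on array 2 with median centring (all features: 11.1%), and 8 were the reverse (all features: 68.3%). Of the others, 17 were higher on both arrays (all features: 10.8%) and 2 were lower on both (all features: 9.75%).

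**Figure D1:**
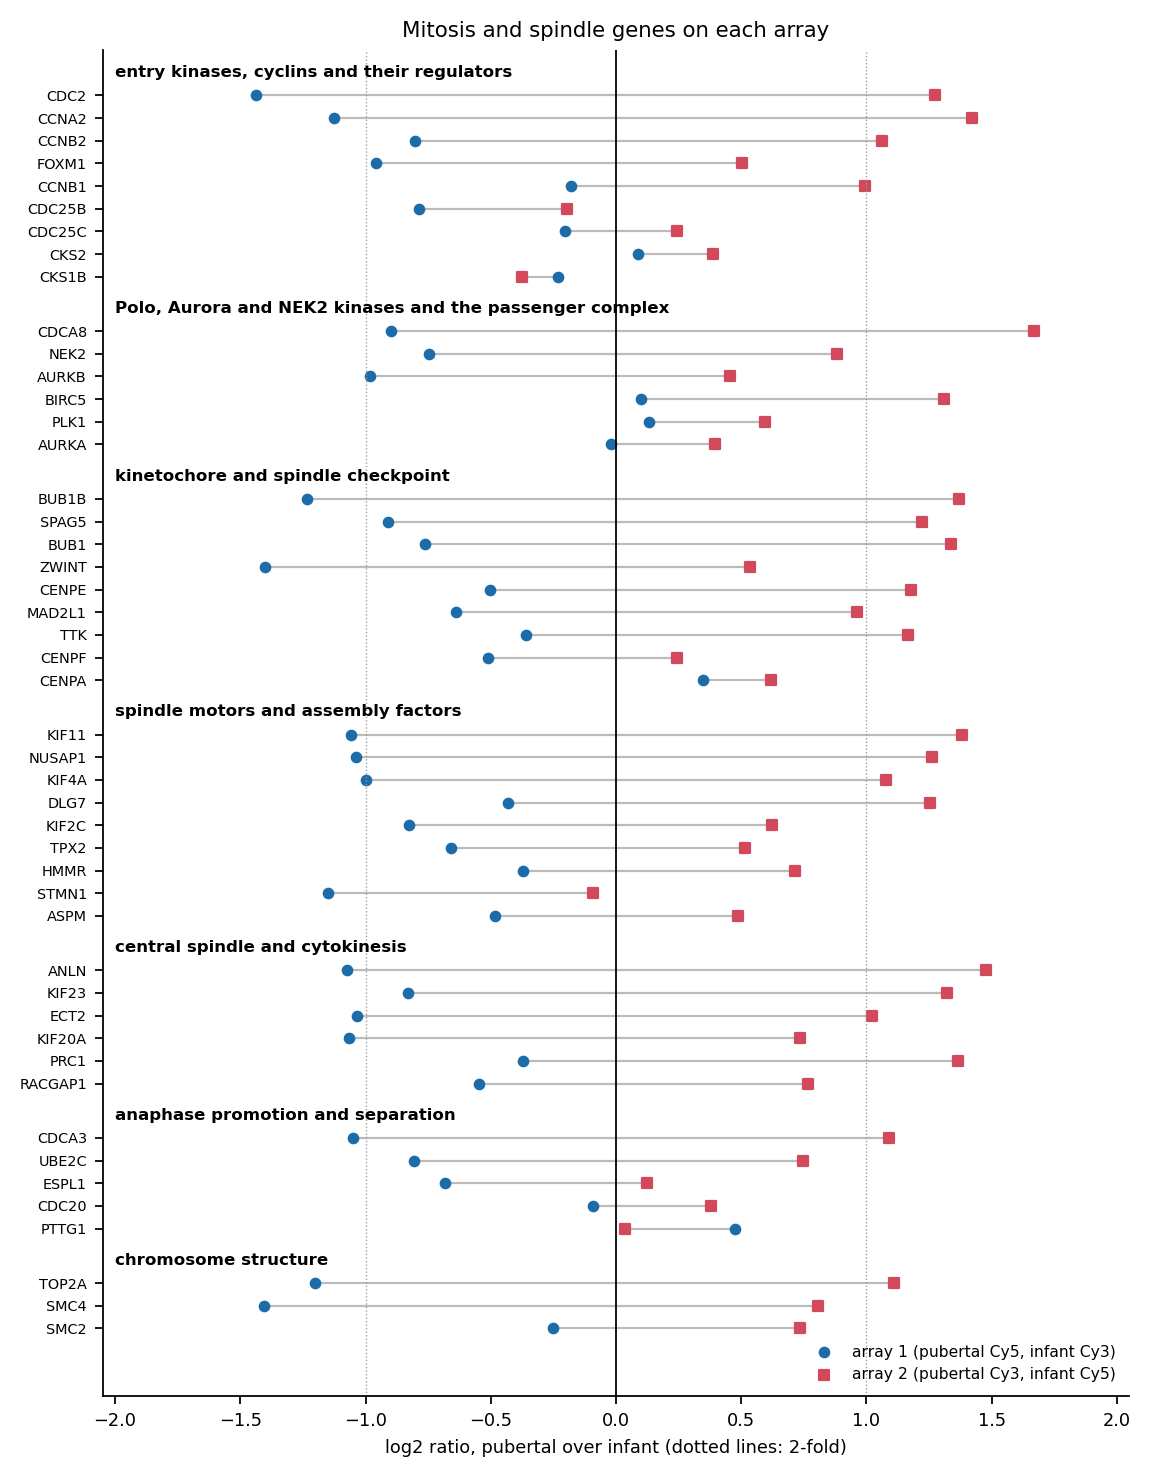
Log2 ratio of pubertal over infant (horizontal axis) of each of the 47 mitosis and spindle genes, grouped by role, on array 1 (circles) and array 2 (squares), 1 value per array after loess. In 39 genes the circle lies left of 0 and the square right of it; with median centring in place of loess the median of the circles moves from -0.76 to 0.03.

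A 2-fold difference was common on each array taken alone. On array 1, 13 of the 47 genes were at least 2-fold lower in the pubertal culture (all features: 2.97%) and 0 were 2-fold higher (all features: 4.26%). On array 2, 20 were at least 2-fold higher (all features: 2.35%) and 0 were 2-fold lower (all features: 2.37%). Both conditions held for 9 genes (all features: 0.546%). With median centring the counts were 0 on array 1 and 1 on array 2. All features tested then stood at 0.63 and -0.42, which shifts every gene against the 2-fold cut. The share of all features past the cut was not counted in that setting. No gene was 2-fold higher on both arrays (all features: 0.342%) or 2-fold lower on both (all features: 0.352%).

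**Figure D2:**
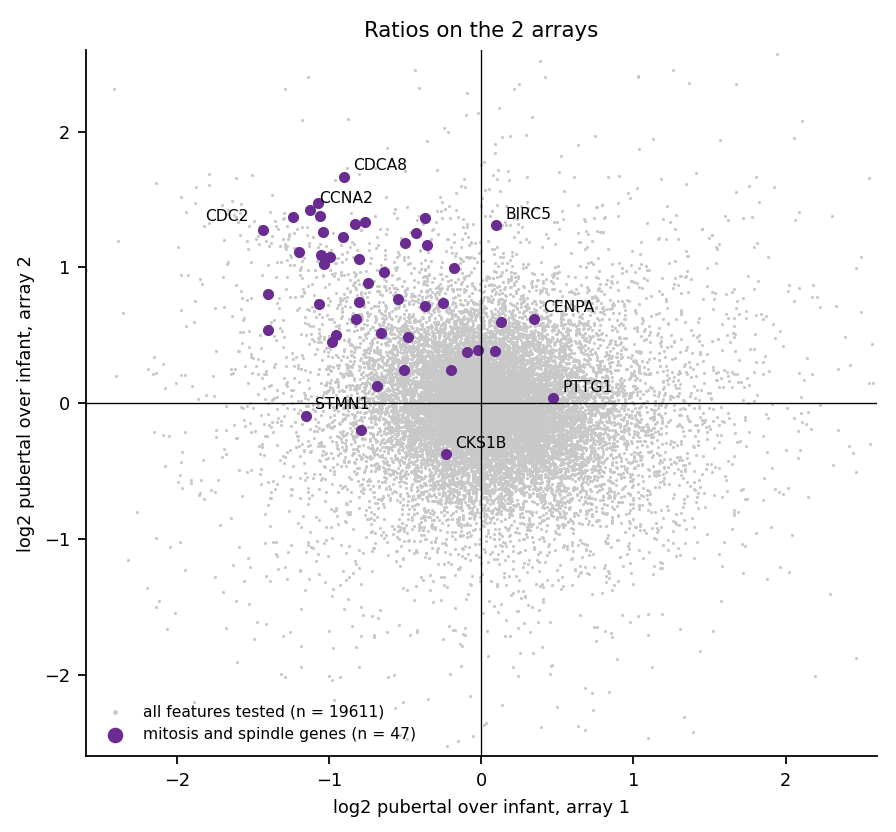
Log2 ratio of pubertal over infant on array 1 (horizontal) against array 2 (vertical) for all 19611 features tested (grey) and the 47 mitosis and spindle genes (purple); 48 features lie beyond the axes at 2.6. The mitosis genes crowd the upper left, lower in the pubertal culture on array 1 and higher on array 2, after loess.

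The levels of the 4 RNAs were taken after loess and between-array scaling. Among them, pubertal culture 2 had the highest level of 36 of the 47 genes and infant culture 1 of 10. Infant culture 2 was highest for 1 gene and pubertal culture 1 for 0. Pubertal culture 1 was lowest for 29 genes and infant culture 2 for 14. These counts of the highest and lowest culture were not made over all features. For 36 genes infant culture 1 and pubertal culture 2 both exceeded the other two RNAs (all features: 16.1%). These are the cultures whose RNA was in Cy3 on their arrays, so the culture pair and the dye cannot be told apart from these 2 arrays. Such an order needs a ratio below 0 on array 1 and above 0 on array 2. With median centring, 20 of the 47 genes had those signs (all features: 11.1%). The levels of the ages were apart, with both pubertal cultures above or both below the infant ones, for 3 genes (all features: 29.9%), namely BIRC5, CDC25B and STMN1.

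**Figure D3:**
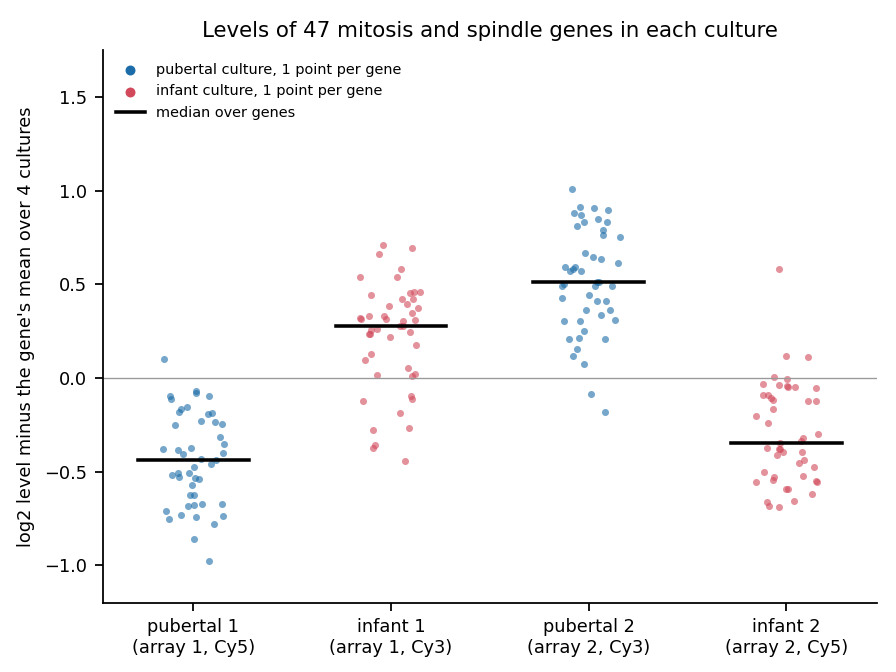
Log2 level of each of the 47 mitosis and spindle genes in each culture, minus that gene's mean over the 4 cultures (vertical axis); 1 point per gene, bars at the medians over genes. The medians are -0.44 in pubertal culture 1, 0.28 in infant culture 1, 0.51 in pubertal culture 2 and -0.35 in infant culture 2, after loess and between-array scaling.

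The test of pubertal over infant over both arrays found none of the mitosis genes. In limma, 0 of 19611 features passed a Benjamini-Hochberg adjusted p of 0.05 (0% of all features), and 792 had an unadjusted p below it (4.04%), with 0 mitosis genes among them. The median of the mean ratio over both arrays was 0.11 for the mitosis genes and 0.01 for all features. The median standard error (SE) of that mean was 0.43 for the mitosis genes and 0.25 for all features. Every SE given here is limma's moderated one, in which a feature's variance is drawn towards a value shared by all features. It is therefore not the plain spread of the 2 ratios, though opposite ratios on the 2 arrays enter it. The difference between the pairs was tested through the mean ratio of Cy5 over Cy3, in which an age difference cancels, while a dye effect or a difference between the culture pairs does not. Here too 0 features passed the adjusted threshold in limma, 1339 had an unadjusted p below 0.05 in either direction, and 619 of those were lower in Cy5 (3.16% of all features). Of the mitosis genes 28 of 47 (59.6%) were lower in Cy5 at that unadjusted threshold and 0 were higher, with adjusted p-values from 0.721 upward. These counts depended on the loess. With median centring, 7 of the 47 were lower in Cy5 at that threshold, and 7027 of 19611 features passed it in either direction. The share of all features lower in Cy5 was not counted in that setting, so the 7 have no matching share. The lowest limma adjusted p of a mitosis gene, in either direction, was then 0.103. After loess, the median mean ratio of Cy5 over Cy3 was -0.77 for the mitosis genes and 0.04 for all features.

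The genes are given below by role. With median centring the sign of the median turned on array 1 for the Polo and Aurora, kinetochore and anaphase groups, and on array 2 for the anaphase group, while relative to all features the medians of the 7 roles ran from -1.22 to -0.40 on array 1 and from 0.21 to 1.002 on array 2.

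Among the 9 kinases, cyclins and regulators of entry into mitosis, 6 were lower on array 1 and higher on array 2, with median ratios of -0.79 and 0.50. CDC2, the array's name for CDK1, the kinase that starts mitosis, had log2 levels of 8.99 and 10.86 in pubertal cultures 1 and 2 and of 10.43 and 9.59 in infant cultures 1 and 2. The high cultures were infant 1 and pubertal 2, and the ages overlapped. Its expression in the pubertal culture was 2.71-fold lower on array 1 and 2.42-fold higher on array 2, the largest span of any member between its highest and lowest culture, 3.66-fold. Its mean ratio of Cy5 over Cy3 was -1.36 ± 0.18 (SE, n = 2 arrays; limma adjusted p = 0.721), and that of pubertal over infant was -0.08 ± 0.66 (limma adjusted p = 1.00). CCNA2, the cyclin that partners CDK1 and CDK2 from S phase into early mitosis, had levels of 7.98 and 9.496 in the pubertal and 9.11 and 8.07 in the infant cultures. The same cultures were high, and the ratios were -1.12 and 1.42. Of the B cyclins, which bind CDK1 in mitosis, CCNB2 had ratios of -0.80 and 1.06, and CCNB1 had -0.18 and 0.99. FOXM1, a transcription factor that switches on many G2 and M phase genes, had levels of 7.85 and 9.10 in the pubertal and 8.81 and 8.59 in the infant cultures, which makes pubertal culture 1 low and the other three closer together. CDC25C, a phosphatase that activates CDK1, showed little span after loess, with ratios of -0.20 and 0.24. Its probe was dim, and the scanner's own log2 ratios were -0.53 and 0.42.

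Of the 6 genes of the Polo, Aurora and NEK2 kinases and the chromosomal passenger complex, 4 were lower on array 1 and higher on array 2, with median ratios of -0.38 and 0.74. CDCA8, which encodes the passenger subunit borealin, had levels of 9.21 and 10.85 in the pubertal and 10.11 and 9.18 in the infant cultures. Infant culture 2 lay as low as pubertal culture 1, and the ratios were -0.90 and 1.67. NEK2, a kinase of centrosome separation, had levels of 6.97 and 7.91 in the pubertal and 7.72 and 7.03 in the infant cultures, near the dim end of the array, again with infant 1 and pubertal 2 high. The Aurora kinases differed in size: AURKB, the kinase of the passenger complex, had ratios of -0.98 and 0.45, and AURKA, which acts at centrosomes and spindle poles, had -0.02 and 0.39.

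The kinetochore and spindle checkpoint group showed the pattern in 8 of 9 genes, with median ratios of -0.64 and 1.17. BUB1B, the checkpoint protein BubR1 that holds back anaphase until chromosomes are attached, had levels of 7.66 and 9.28 in the pubertal and 8.89 and 7.91 in the infant cultures. Both high cultures lay about 1 log2 unit above both low ones, across ages, and the mean ratio of Cy5 over Cy3 was -1.30 ± 0.18 (SE, n = 2 arrays; limma adjusted p = 0.721). SPAG5, or astrin, which stabilises kinetochore fibres, had levels of 10.35 and 11.85 in the pubertal and 11.26 and 10.63 in the infant cultures. BUB1, the checkpoint kinase, had ratios of -0.76 and 1.34, MAD2L1, the checkpoint inhibitor of CDC20, had -0.64 and 0.96, and TTK, the kinase that recruits checkpoint proteins, had -0.36 and 1.17. ZWINT, a kinetochore protein that links the outer plate to the checkpoint, was weighted the other way, with -1.40 on array 1 and 0.54 on array 2. CENPE, a kinetochore motor, had -0.50 and 1.18, and CENPF had -0.51 and 0.24.

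Of the 9 spindle motors and assembly factors, 8 were lower on array 1 and higher on array 2, with median ratios of -0.82 and 0.71. KIF11, the motor Eg5 that pushes spindle poles apart, had levels of 7.81 and 9.46 in the pubertal and 8.87 and 8.08 in the infant cultures, with infant 1 and pubertal 2 high. NUSAP1, which bundles spindle microtubules, had levels of 7.33 and 8.36 in the pubertal and 8.37 and 7.10 in the infant cultures, so that the high RNAs of either age were nearly equal. The ratios of the kinesin KIF4A were -0.998 and 1.08, those of the microtubule depolymerase KIF2C were -0.82 and 0.62, and those of DLG7, now named DLGAP5, a spindle assembly factor, were -0.43 and 1.25. TPX2, which activates AURKA on the spindle, HMMR and ASPM had smaller ratios, from -0.66 to -0.37 on array 1 and from 0.49 to 0.71 on array 2. The size depended on the processing. The scanner's own log2 ratios were -1.10 and 1.18 for the dim ASPM probe, -0.99 and 0.74 for TPX2 and -0.53 and 0.87 for HMMR.

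All 6 genes of the central spindle and cytokinesis showed the pattern, with median ratios of -0.93 and 1.17. ANLN, the anillin of the contractile ring, had levels of 8.72 and 10.28 in the pubertal and 9.80 and 8.80 in the infant cultures, with infant 1 and pubertal 2 high. KIF23, the motor of the centralspindlin complex, had levels of 9.43 and 10.71 in the pubertal and 10.26 and 9.39 in the infant cultures, in the same arrangement. ECT2, the exchange factor that turns on RhoA at the midzone, was close to symmetric at -1.03 and 1.02, and its partner RACGAP1 had -0.55 and 0.77. PRC1, a microtubule crosslinker, had a small ratio on array 1, -0.37, and a large one on array 2, 1.37, whereas KIF20A, a midzone kinesin, had -1.07 and 0.73.

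Of the 5 genes of anaphase promotion and chromatid separation, 4 showed the pattern, with median ratios of -0.68 and 0.38. CDCA3, a mitotic entry factor itself degraded through the anaphase-promoting complex, had levels of 7.91 and 9.39 in the pubertal and 8.96 and 8.30 in the infant cultures, with infant 1 and pubertal 2 high. UBE2C, the ubiquitin-conjugating enzyme of that complex, had levels of 11.10 and 12.02 in the pubertal and 11.90 and 11.27 in the infant cultures, in the same order of high and low. CDC20, its activator, had the smallest span between its highest and lowest culture of any member, 1.30-fold, with ratios of -0.09 and 0.38. ESPL1, the separase that cleaves cohesin, had -0.68 and 0.12.

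The chromosome structure group had 3 measured genes of 4, all with the pattern. TOP2A, the topoisomerase that untangles sister DNA, had levels of 8.03 and 9.05 in the pubertal and 9.23 and 7.94 in the infant cultures. Its ratios were -1.201 and 1.11, with infant 1 and pubertal 2 high. SMC4, a condensin subunit, had levels of 7.59 and 8.71 in the pubertal and 8.998 and 7.91 in the infant cultures, and its partner SMC2 had ratios of -0.25 and 0.74.

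For the remaining 8 genes both arrays gave 1 sign, 5 higher in the pubertal cultures (all features: 23.5%) and 3 lower (all features: 21.9%). CENPA, the histone H3 variant that marks centromeres, had the smallest p of the mitosis genes for pubertal over infant, with ratios of 0.35 and 0.62 and a mean of 0.48 ± 0.25 (SE, n = 2 arrays; limma adjusted p = 1.00). Its levels were 9.66 and 10.34 in the pubertal and 9.31 and 9.72 in the infant cultures, and infant culture 2 slightly exceeded pubertal culture 1, so the ages overlapped. BIRC5, the passenger protein survivin, had levels of 11.43 and 12.47 in the pubertal and 11.33 and 11.16 in the infant cultures. The ages did not overlap, but pubertal culture 2 stood alone and pubertal culture 1 lay just above the infant RNAs, and the mean ratio was 0.70 ± 0.36 (SE, n = 2 arrays; limma adjusted p = 1.00). STMN1, the microtubule-destabilising protein stathmin, had levels of 12.81 and 13.07 in the pubertal and 13.96 and 13.16 in the infant cultures. Here infant culture 1 stood alone above the other three, with ratios of -1.15 and -0.09 and a mean of -0.62 ± 0.34 (SE, n = 2 arrays; limma adjusted p = 1.00).

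CDC25B, the phosphatase that first activates CDK1 at the centrosome, had levels of 9.10 and 9.42 in the pubertal and 9.89 and 9.62 in the infant cultures, with both infant RNAs above both pubertal ones. PLK1, the Polo kinase of mitotic entry, had levels of 11.33 and 12.15 in the pubertal and 11.20 and 11.56 in the infant cultures, and CKS1B, a small subunit of the kinases, had 12.14 and 12.85 in the pubertal and 12.37 and 13.23 in the infant cultures. In both genes the cultures of array 2 were above those of array 1, and the ages overlapped. CKS2, the paralog of CKS1B, had ratios of 0.09 and 0.39, and PTTG1, the securin that inhibits separase, had 0.47 and 0.04. Without array 1 each mean becomes the ratio of array 2, and without array 2 that of array 1, so that a ratio near 0 on either one leaves the direction resting on the other.

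The probes of a gene mostly gave the same signs. Of the 62 probes, 57 were well above background in the RNAs the filter asked for, and 8 genes kept more than 1 probe. In 6 of these the probes had the same sign on each array. For PLK1 a second probe read -0.26 and 0.41, the pattern of the 39 genes, where the brighter one read 0.13 and 0.60. For CKS1B one of 3 probes read 0.06 on array 1, while the others read -0.43 and -0.23. The 5 probes that were left out belonged to MKI67, CCNB2, ESPL1, RACGAP1 and SMC4, and that of MKI67 read 0.11 and -0.21, dim spots that give no level.

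Repeated spots on the slide showed how precisely a ratio was read within an array. The probes of CDC2, CCNA2, KIF20A, CENPE and BIRC5 were each printed 10 times. On array 1, 8 CDC2 spots without an outlier flag read from -1.54 to -1.33, and on array 2, 10 spots read from 1.096 to 1.40. The spot SD of these 5 genes was 0.06 to 0.12 on either array. The 10 CCNA2 spots read from -1.29 to -1.06 on array 1 and from 1.33 to 1.53 on array 2. BIRC5 spots straddled 0 on array 1, from -0.04 to 0.20, and read from 1.20 to 1.48 on array 2. Spots share 1 hybridisation, so this spread is technical and not that between animals. By the scanner software's own error model, which likewise covers 1 array, 32 of the 47 genes were past its p of 0.01 on array 1, all 32 lower in the pubertal culture (among all features 15.4% were past it and lower, and 17.8% higher), and 36 on array 2, all 36 higher (among all features 13.3% were past it and higher, and 13.8% lower).

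**Figure D4:**
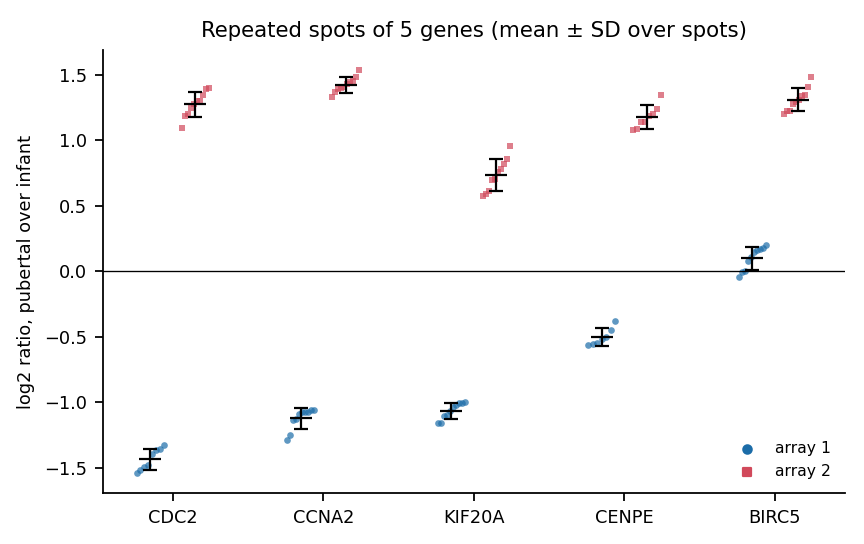
Log2 ratio of pubertal over infant of each spot without an outlier flag, for the 5 mitosis and spindle genes whose probe was printed 10 times, on array 1 (circles) and array 2 (squares); black bars are the mean ± SD over spots. For CDC2, CCNA2, KIF20A and CENPE no spot of either array crosses 0, and BIRC5 spots of array 1 lie on both sides of it, after loess.

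The genes were also described by features that did not choose them. Across the 47 genes the ratios of array 1 and array 2 were correlated at -0.35 (Pearson) and -0.38 (Spearman), where all features gave -0.07 and -0.10. These are correlations across genes that share the same 4 RNAs, and genes are not independent replicates. The mitosis genes' probes had a median GC content of 41.7% against 45.0% for all features, and a median log2 intensity of 9.51 against 8.96. The part of base composition and brightness in the ratios was not tested.

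Other cell cycle genes were taken from lists that hold none of the 48. Of 73 other G2 and M phase genes, 57 were measured, with median ratios of -0.35 and 0.54. Of these, 42 were lower on array 1 and higher on array 2 (all features: 23.2%). SPBC25, a subunit of the NDC80 kinetochore complex, had the largest difference between the arrays there, -1.79 and 1.61, followed by the condensin subunit HCAP-G at -1.51 and 1.68. Of 59 genes of DNA replication and S phase, 55 were measured and 45 had the pattern (all features: 23.2%), with medians of -0.35 and 0.47. RRM2, which makes deoxyribonucleotides, had -1.62 and 1.66 in that list. The 28 measured genes of CDK inhibitors, D cyclins and quiescence had medians of -0.04 and 0.08. Among them 10 had the pattern (all features: 23.2%) and 7 the reverse (all features: 6176 of 19611). In that list CCND1, the D cyclin of G1, had -1.84 and 0.88. BTG2, an antiproliferative gene, had the reverse, 0.54 and -1.35. None of these genes passed the limma test of pubertal over infant at the adjusted threshold. With median centring the medians were 0.06 and 0.10 for the other G2 and M phase genes and 0.36 and -0.04 for S phase, which relative to all features is -0.57 and 0.52 for the former and -0.27 and 0.37 for the latter. The list of CDK inhibitors, D cyclins and quiescence then lay at 0.13 and -0.03 relative to all features.

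**Figure D5:**
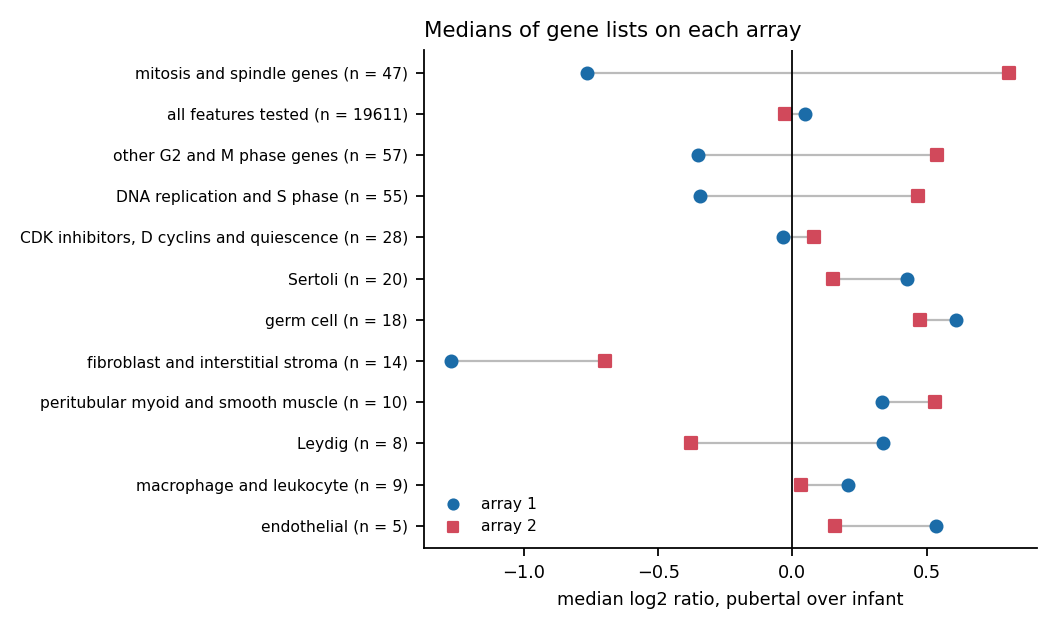
Median log2 ratio of pubertal over infant over the measured genes of each list, on array 1 (circles) and array 2 (squares), with the number of genes in parentheses, after loess. The mitosis and spindle genes lie at -0.76 and 0.81 and all features tested at 0.05 and -0.03; with median centring the mitosis genes lie at 0.03 and 0.36 and all features at 0.63 and -0.42, and the sign of other lists can turn too, as for S phase at 0.36 and -0.04.

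Markers of the labelled cell type were present, since 20 of 20 Sertoli cell genes were measured, among them SOX9, WT1 and AMH. Their summed intensity was 181275 and 183062 in the pubertal and 171234 and 149031 in the infant cultures, and their median ratio of Cy5 over Cy3 was 0.02. Germ cell markers were measured for 18 of 25 genes. In the pubertal culture 16 were higher on both arrays (all features: 23.5%), and 13 with median centring (all features: 10.8%). Their summed intensities were 7650 and 7163 in the pubertal and 4514 and 6350 in the infant cultures. Of 14 stroma markers 10 were lower in the pubertal culture on both arrays (all features: 21.9%), and 8 with median centring (all features: 9.75%). Their sums were 35643 and 54377 in the pubertal and 84774 and 80272 in the infant cultures. The mitosis genes summed to 53622 and 90170 in the pubertal and 76300 and 62706 in the infant cultures. The sums of Leydig cell markers (8 of 9 measured) were 135619 and 160657 in the pubertal and 131434 and 88817 in the infant cultures, and those of peritubular myoid markers (10 of 10) were 64875 and 116504 in the pubertal and 47875 and 101983 in the infant cultures. Leukocyte markers (9 of 12) summed to 1169 to 2361 and endothelial markers (5 of 9) to 815 to 1064 in any culture. For comparison, the other G2 and M phase genes summed to 83085 and 101540 in the pubertal and 77491 and 80520 in the infant cultures, and the S phase genes to 68947 and 112121 in the pubertal and 85236 and 80483 in the infant cultures. Infant culture 1 and pubertal culture 2 had the highest sums for the mitosis and S phase genes, but not for the other G2 and M phase genes or any of the 7 marker lists. A sum follows its brightest probes, and the part of cell type markers in the ratios of the mitosis genes was not tested.

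The authors' deposited table of log2 ratios held 36 probes of 30 of the 48 genes. Its medians over those probes were -1.22 on array 1 and 1.33 on array 2, over the filled cells, with 3 empty on array 2. Of the probes filled on both arrays 31 had opposite signs, and only those of BIRC5 and STMN1 had the same sign. That count was not made over all 4848 probes of the table. The table lists probes with a large ratio on an array, so these medians describe its selection. Values of the authors' deposited table differed from the scanner's log ratios by at most 0.137 for these probes.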

How the data were processed

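Two-colour scans of 2 arrays were used, read, as the submitters' processing notes have it, by Agilent Feature Extraction 9.5.1.1, on the human design 014850 with hg17 positions per the file headers. The deposited scanner files hold raw mean and background intensity, processed intensity, a log10 ratio of Cy5 over Cy3 with its p-value from the scanner's error model, and other values that flag spots, per the file headers. The authors' deposited table holds log2 ratios whose normalization is not given in the sources used here.

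Mean intensities were corrected with normexp (offset 50) and loess in limma 3.58.1 under R 4.3.3. Control spots had no weight, outlier spots were left out, saturated ones were kept, and spots of 1 probe were averaged. Levels of the 4 RNAs used Aquantile scaling after loess. Probes were kept where well above background in the pubertal RNA of both arrays or the infant RNA of both. The brightest probe stood for a gene. This left 19611 features, 14213 with a symbol. The dye labels set the direction of each ratio, pubertal over infant, which was tested two-sided with lmFit and eBayes (1 residual degree of freedom, 3.82 from the prior), with Benjamini-Hochberg adjustment over all features. The procedure was tested on simulated data. Alternatives changed the background correction, normalization, filter, saturated spots, probe choice, variance prior and array.

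The members and lists were chosen with earlier results of these data known. Full values are given for the 3 members with the smallest p, up to 6 of the same sign on both arrays, 2 per role with the largest mean ratio of Cy5 over Cy3, and MKI67, TOP2A, CDC2 and FOXM1. Other members appear with their ratios, and up to 4 genes of another list by the size of their mean ratio in the direction stated.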

Additional observations from a re-analysis of the deposited data

How the results depend on the processing

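With 2 arrays, each direction rests on 2 values and on the dye labels; were the labels of 1 array exchanged, the 39 genes of opposite sign would have 1 sign. With the labels as given, 16 of 18 germ cell markers were higher on both arrays (all features: 23.5%). Of 14 stroma markers, 10 were lower on both (all features: 21.9%). Of the 20 Sertoli markers, 9 were higher on both arrays, among them CST9L at 4.85 and 4.58. Another 2 were lower on both and 9 had opposite signs, as had 5 of 8 Leydig markers (all features: 10716 of 19611). With 1 array exchanged, genes of 1 sign would have opposite signs and the reverse. An exchange of labels was not tested. Under 9 other settings, 0 mitosis genes passed either limma test. The count with opposite signs in either order stayed within 1.5 times of 39 (all features after loess: 10716 of 19611). With median centring it was 28. Of these, 20 were lower on array 1 and higher on array 2 (all features: 11.1%) and 8 were the reverse (all features: 68.3%). For pubertal over infant, 1 feature, none of the mitosis genes, passed with offset 0, with median centring and with an intensity trend. Median centring gave 17 mitosis genes higher on both arrays (all features: 10.8%), with medians of 0.0291 and 0.36. All features tested then stood at 0.63 and -0.42. In that setting 0 mitosis genes were at least 2-fold lower on array 1 and 1 was at least 2-fold higher on array 2. The share of all features past 2-fold was not counted there. The authors' deposited table, which lists large ratios, gave medians of -1.22 and 1.33. Of 189 values of named genes, 184 kept their sign and 5 changed it, all with means near 0: CDC2 at 0.0259, UBE2C at 0.15 and TOP2A at 0.0453 with median centring, and CDCA3 at -0.0214 with the scanner's processed signals and -0.0174 with offset 0. Many of the 184 could not turn. Changes of the filter, the saturated spots, the use of single probes or the variance prior left the ratio of a gene's brightest probe as it was. Leaving out 1 array leaves a single ratio with no test. The median of the mitosis genes then ran from -0.76 (array 1) to 0.81 (array 2). The ranges were -1.44 to 1.27 for CDC2, -1.12 to 1.42 for CCNA2, -0.90 to 1.67 for CDCA8, -0.74 to 0.88 for NEK2, -1.24 to 1.37 for BUB1B, -0.91 to 1.22 for SPAG5 and -1.06 to 1.38 for KIF11. They were -1.04 to 1.26 for NUSAP1, -1.08 to 1.48 for ANLN, -0.83 to 1.32 for KIF23, -1.05 to 1.09 for CDCA3, -0.80 to 0.74 for UBE2C, -1.201 to 1.11 for TOP2A, -1.40 to 0.81 for SMC4 and -0.96 to 0.50 for FOXM1. The limma test is itself paired, since it uses ratios within an array; a fit with a further replicate block was not possible because the 2 ratios leave no degree of freedom for it. Dim probes such as that of MKI67 give no ratio that can be read.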
